A study of Zea mays with 6 samples.

Results

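The genes described here were the calcium sensors of maize leaves and the proteins that act directly with them, among them the kinases driven by calcineurin B-like proteins (CBL-interacting protein kinases, CIPK). They were chosen by words in the functional description of the deposited series table (calcineurin, calmodulin, annexin, calreticulin, calcium-dependent protein kinase, calcium-binding and CIPK, with their spellings), which matched 83 of 39634 genes. By the same descriptions they fell into 12 calmodulins and calmodulin-like proteins, 5 calcineurin B-like proteins (CBL), 2 genes described as calcineurin subunit B, 11 CIPK, 15 calcium-dependent protein kinases (CDPK), 2 CDPK substrates, 22 calmodulin-binding proteins, 6 annexins, 1 calreticulin and 7 other calcium-binding proteins. Of all genes, 19801 carried no description, so a sensor among those was not counted.

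Transcript levels were measured by RNA-Seq in leaves of maize seedlings of the cultivar B73, about 2 weeks old, with 2 libraries of pooled plants per condition. W leaves came from watered seedlings that were never dried. S1 leaves came from seedlings air-dried once for 2 h, and S3 leaves from seedlings taken at the third such drying, each earlier drying having been followed by 22 h of rehydration. No library sampled the second drying or the recovery periods, and S3 leaves were taken later than those of S1. A difference in S3 is therefore not dated to the third drying. Seedlings were lifted from soil and kept overnight with their roots in water before the first drying, and whether those of W were lifted too is not given in the sources used here. Levels are given as FPKM, mapped fragments scaled to the length of the transcript and to the total of the library, which puts genes of different length on a shared scale; the number of reads behind each value was unknown from the files.

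Calcium works in plants as a second messenger: drying, cold, salt and touch each raise free calcium in the cytosol, and proteins with EF-hand loops bind it and change shape. Calmodulin and its relatives have no catalytic activity and act by docking onto target proteins. CBL proteins dock onto CIPK, a plant group within the SNF1-related kinases, and bring them to membranes, where in Arabidopsis they phosphorylate ion transporters such as the sodium/proton antiporter SOS1 and the potassium channel AKT1. CDPK join a kinase and a calmodulin-like domain in the same polypeptide. Annexins bind membrane lipids in the presence of calcium, and calreticulin holds calcium and folds glycoproteins in the endoplasmic reticulum.

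Of the 83 genes, 62 reached at least 1 FPKM in at least 2 libraries and were tested. The 21 others included 5 that were listed at 0 in every library (GRMZM2G137751, GRMZM2G347047, AC233871.1_FG003, GRMZM2G407626 and GRMZM2G312827), and no library had more than 1.01 FPKM of any of the remaining 16. In 4 of the tested genes only the libraries of a single condition reached that minimum. GRMZM2G178074 and GRMZM2G070273 were among these, and their calls are included in the counts below. GRMZM2G110080 reached the minimum in both S3 libraries and otherwise only in S1 replicate 1, and its call is included too. A gene was taken to have risen or fallen when limma gave it an adjusted p no greater than 0.05 and a log2 fold change of FPKM + 1 (log2 change below) of 1 or more in either direction, a scale that understates the change of weakly expressed genes. With 2 libraries per condition, p-values rest on a spread estimated from 6 libraries.

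In S1 against W leaves, 13 genes rose and 1 fell among the 62, where 7.51% of all 20130 genes tested rose and 1.54% fell. In S3 against S1 leaves, 8 rose and 9 fell, beside 9.17% and 9.22% of all genes tested. In S3 against W leaves, 14 rose and 2 fell, beside 13.3% and 8.7%. Of the 62, 21.0% rose and 1.61% fell in S1 against W, 12.9% rose and 14.5% fell in S3 against S1, and 22.6% rose and 3.23% fell in S3 against W. In all, 25 genes changed in at least 1 comparison. The comparisons share libraries, so the values of each gene are given side by side below rather than as an overlap. The median log2 change of the 62 was 0.27, 0.06 and 0.29 in the order of these comparisons, where that of all genes tested was -0.01, 0.11 and 0.16. Scaled by the median of ratios, the median of all genes became -0.0040 (S3 against S1) and 0.019 (S3 against W), and scaled by the upper quartile it became -0.12 (S1 against W) and -0.038 (S3 against W). With the upper quartile, all genes split into 1982 higher and 2173 lower in S3 against W, in place of 2673 and 1751.

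**Figure D1:**
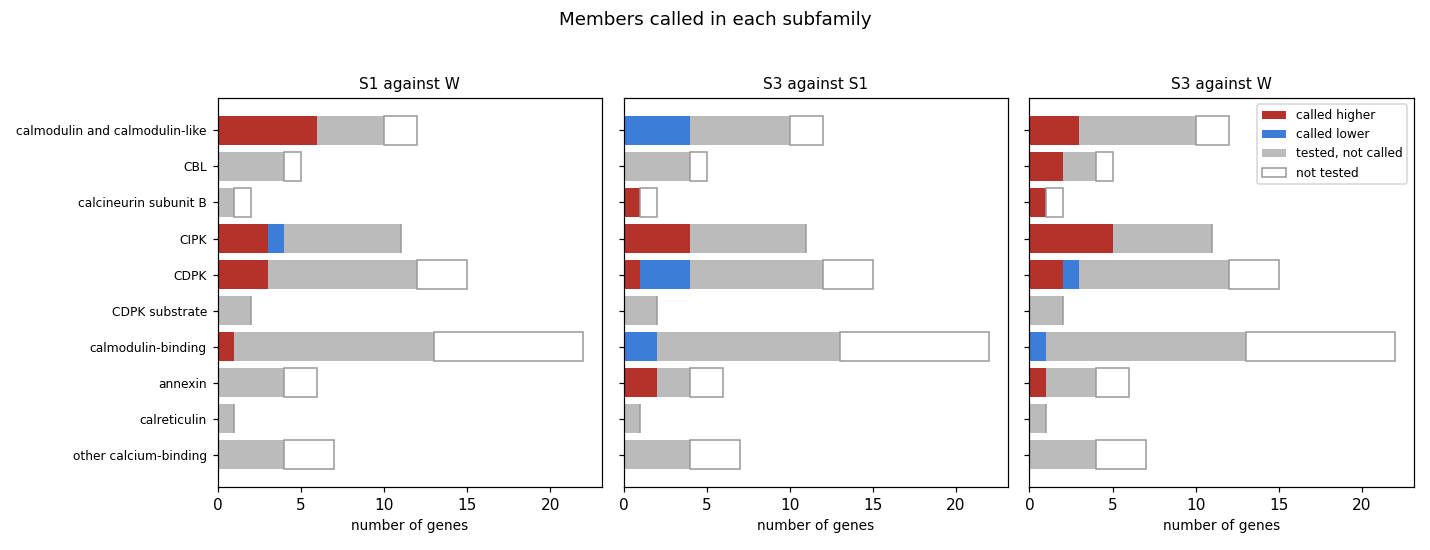
Number of genes (x axis) in each group by description (y axis) that were called higher, called lower, tested without a call, or not tested, in S1 against W, S3 against S1 and S3 against W. In S1 against W the calmodulin group had 6 genes called higher and none lower, in S3 against S1 it had 4 called lower, and the CIPK had 5 called higher in S3 against W. Of all genes tested, 7.51% were called higher in S1 against W, 9.22% lower in S3 against S1 and 13.3% higher in S3 against W.

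The leaf identity of the libraries was checked with 29 genes chosen by description for C4 photosynthesis and light harvesting, none of which was at 0 throughout. Their summed level was 44233 and 27274 FPKM in W, 32217 and 32548 FPKM in S1 and 7637 and 12125 FPKM in S3. Of the 27 tested 16 fell and 3 rose in S3 against W, where 8.7% of all genes tested fell and 13.3% rose. In S1 against W none fell and 1 rose, beside 1.54% and 7.51% of all genes tested. Of 8 genes described as root genes 7 were listed at 0 throughout. The 15 genes chosen by description for dividing or meristem cells summed to between 194 and 410 FPKM. Of these 15 only 5 reached the level for testing and 4 were at 0 throughout. The lower sum of leaf genes came from the same libraries as every S3 value below, changed or not, and its part in those values was not tested. In whole leaves, fewer cells of a type and less RNA per cell cannot be told apart.

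The calmodulin group held the largest share of risers in S1 leaves. Of all genes tested, 7.51% rose and 1.54% fell against W, with a median log2 change of -0.01. In the group 6 of 10 tested genes (60%) rose and none fell, with a median of 1.38. The gene with the highest level of all 83 in S3 leaves was among them. This gene, the calmodulin GRMZM2G004703, had 162 and 144 FPKM in W, 373 and 286 FPKM in S1 and 334 and 475 FPKM in S3. All libraries of stressed leaves stood above both of W, and those of S1 and S3 overlapped. On the log2 scale the difference was 1.09 ± 0.25 (SE) in S1 against W (limma adjusted p = 0.0256) and 1.37 ± 0.25 in S3 against W (limma adjusted p = 0.00411). The S1 call was lost without any one of W replicate 1 (1.17), W replicate 2 (1.00), S1 replicate 1 (0.90) or S1 replicate 2 (1.28), with limma adjusted p between 0.0674 and 0.140, and it was also lost with upper-quartile scaling (0.96), when all genes above 0 were tested (limma adjusted p = 0.0724) and with the replicate number, which marks a small difference in read length, as a block (limma adjusted p = 0.0558).

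The other calmodulins of high level had no call in any comparison. GRMZM2G117582 had 86.5 and 74.2 FPKM in W, 71.5 and 79.8 FPKM in S1 and 90.2 and 86.8 FPKM in S3, and the 95% interval of its log2 change ran between -0.47 and 0.30 in S1 against W and between -0.25 and 0.53 in S3 against W. GRMZM2G067511, described as calmodulin2, had 71.6 and 66.0 FPKM in W, 65.6 and 72.8 FPKM in S1 and 103 and 82.3 FPKM in S3, with an interval between -0.40 and 0.42 in S1 against W. GRMZM2G004703 alone took 48.8% and 48.6% of the summed level of the group in the W libraries, 60.3% and 54.7% in those of S1 and 57.4% and 69.8% in those of S3.

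The largest rise of the 62 genes at the first drying was in GRMZM2G097900, described as a touch-induced calmodulin-related protein, the class first known in Arabidopsis from transcripts that appear within minutes of handling. It had 0.38 and 0.99 FPKM in W, 51.0 and 30.4 FPKM in S1 and 6.38 and 5.23 FPKM in S3. The 3 conditions did not overlap, with S1 highest and W lowest. The fitted log2 change was 4.61 ± 0.28 in S1 against W (limma adjusted p = 8.82e-05), -2.57 ± 0.28 in S3 against S1 (limma adjusted p = 0.000613) and 2.03 ± 0.28 in S3 against W (limma adjusted p = 0.00112). On the FPKM scale its mean in S1 was 7.01 times that in S3.

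Of the weaker calmodulins, GRMZM2G149923, GRMZM5G847466 and GRMZM2G467184 likewise stood highest in S1. GRMZM2G149923 had 1.61 and 1.86 FPKM in W, 7.45 and 10.3 FPKM in S1 and 1.93 and 1.40 FPKM in S3, so that the S3 libraries lay on both sides of those of W. It had a log2 change of 1.84 ± 0.20 in S1 against W, -1.88 ± 0.20 in S3 against S1 and -0.04 ± 0.20 in S3 against W, the last with a 95% interval between -0.52 and 0.43. GRMZM5G847466 had 3.82 FPKM in both W libraries, 14.1 and 14.4 FPKM in S1 and 5.53 and 5.37 FPKM in S3. It rose by 1.66 ± 0.15 on the log2 scale in S1 against W and had -1.24 ± 0.15 in S3 against S1. GRMZM2G467184, calmodulin-like protein 1, had 1.50 and 1.88 FPKM in W, 10.5 and 9.07 FPKM in S1 and 4.32 and 3.79 FPKM in S3. It rose by 2.00 ± 0.17 in S1 against W and had -1.09 ± 0.17 in S3 against S1. Its fall was lost without S1 replicate 1 (-0.997, just under the fold limit) and with a pseudocount of 2 (-0.96), and its S3 difference from W (0.91) became a call without W replicate 2 (1.01).

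GRMZM2G062673, described as a calmodulin, kept a high level in S3. It had 2.72 and 1.32 FPKM in W, 20.7 and 16.7 FPKM in S1 and 33.0 and 15.7 FPKM in S3, and the S1 values lay between those of S3. The log2 change was 2.74 ± 0.36 in S1 against W (limma adjusted p = 0.00237) and 3.02 ± 0.36 in S3 against W (limma adjusted p = 0.000546), and that of S3 against S1 had an interval between -0.55 and 1.11. Calmodulin genes can encode nearly identical proteins, and the split of reads between close copies by the upstream counting could not be checked.

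**Figure D2:**
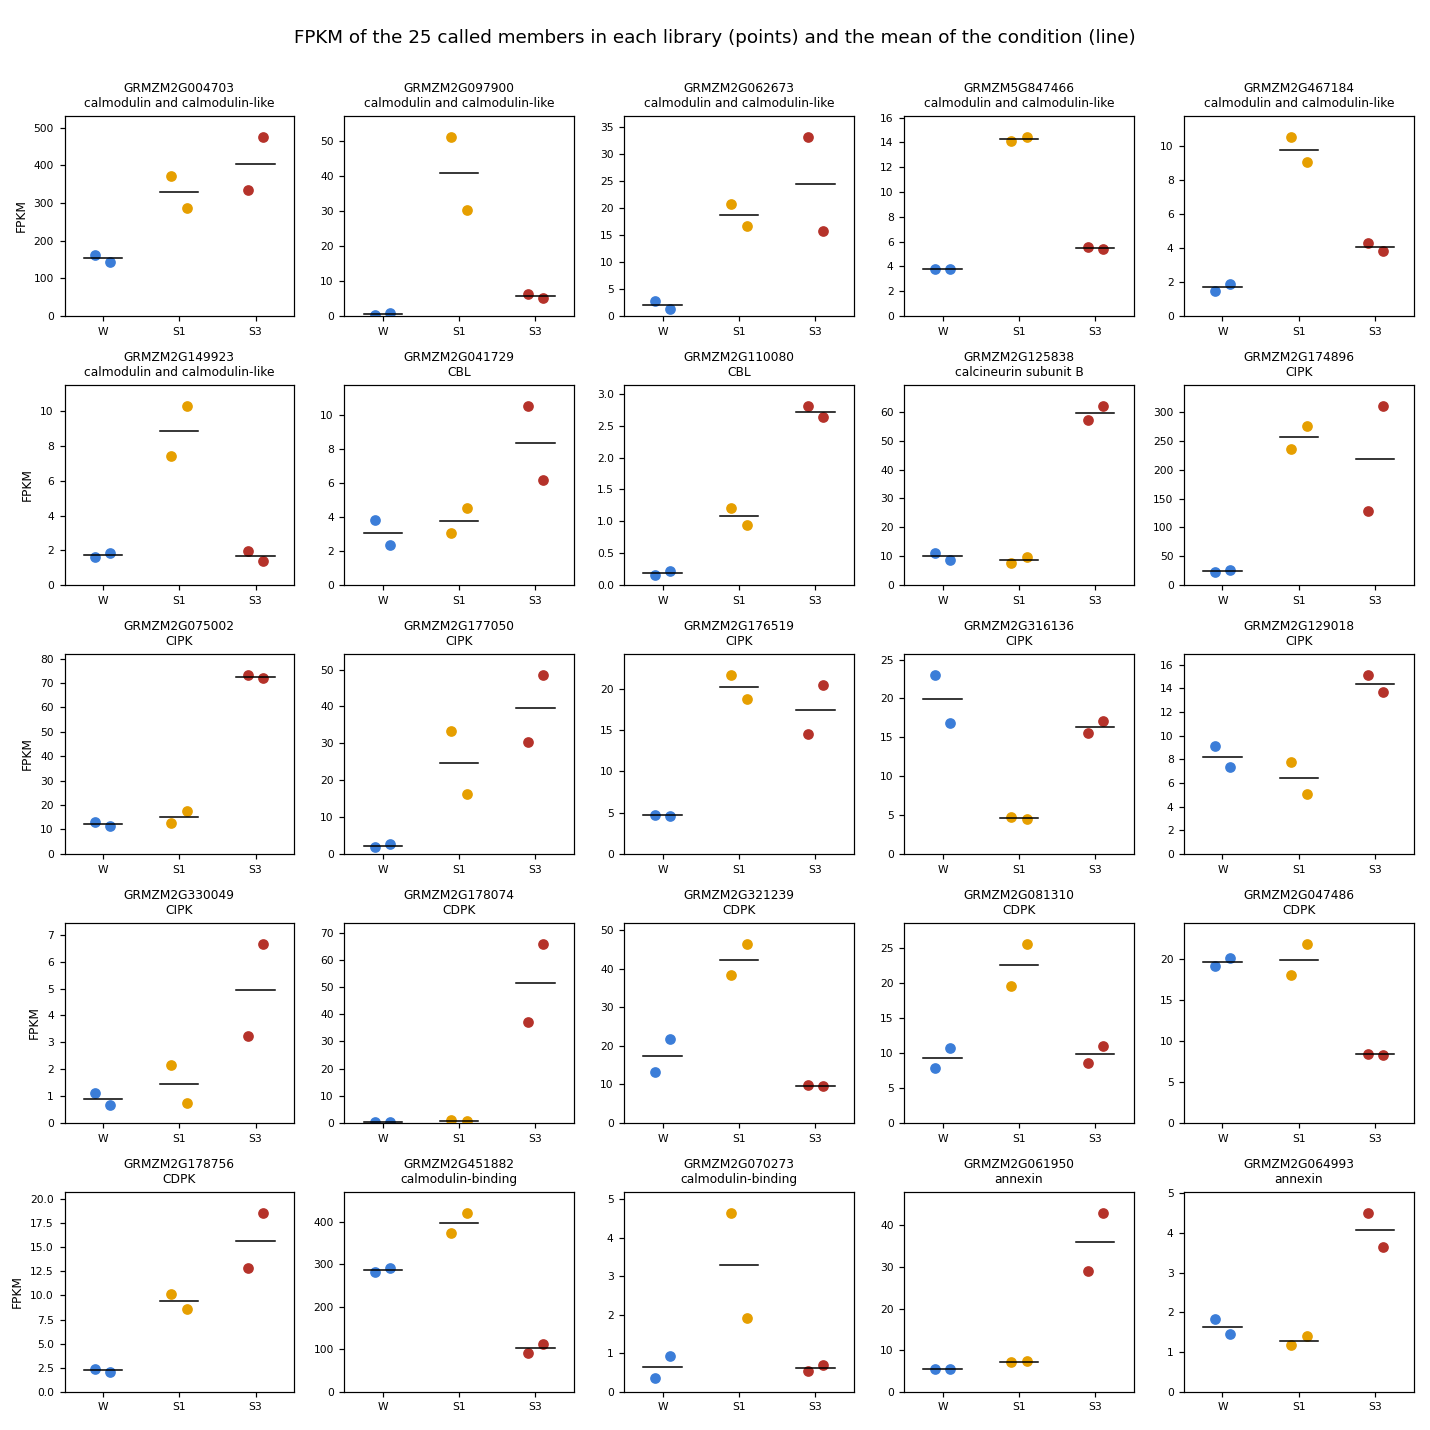
FPKM (y axis, linear, each panel with its own scale from 0) of the 25 genes that changed in at least 1 comparison, in W, S1 and S3 leaves (x axis). Points are single libraries and lines the mean of the condition; GRMZM2G097900 peaks in S1, GRMZM2G178074 and GRMZM2G125838 are high in S3 alone among these conditions, and GRMZM2G316136 is lowest in S1.

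The CBL proteins, which carry the calcium signal to the CIPK, showed no call at the first drying in any of the 4 tested genes. Of all genes tested 7.51% rose there. In S3 against W 2 of the 4 (50%) rose, beside 13.3% of all genes tested. GRMZM2G110080, 1 of these 2, was tested only through its S3 level, so this share is not independent of that choice. The highest CBL gene, GRMZM2G112672 (CBL protein 3), had between 29.9 and 38.1 FPKM in all 6 libraries, with an interval of its log2 change between -0.28 and 0.54 in S1 against W and between -0.23 and 0.58 in S3 against W. GRMZM2G015324 (CBL protein 9) had 18.3 and 22.6 FPKM in W, 25.8 and 23.0 FPKM in S1 and 46.8 and 31.0 FPKM in S3, and its 0.87 in S3 against W passed the p limit (limma adjusted p = 0.0161) but not the fold limit. Both stood far above the CBL genes that rose.

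GRMZM2G041729, a CBL protein, had 3.80 and 2.37 FPKM in W, 3.07 and 4.51 FPKM in S1 and 10.5 and 6.20 FPKM in S3. W and S1 overlapped and both S3 libraries stood higher. On the log2 scale the difference was 1.18 ± 0.29 in S3 against W (limma adjusted p = 0.0141), and the call was lost without W replicate 2 (0.92), without S3 replicate 1 (0.84), with upper-quartile scaling (0.99) and when all genes above 0 were tested (limma adjusted p = 0.0519). In S3 against S1 its 0.94 missed the fold limit and reached it without S3 replicate 2 (1.28). GRMZM2G110080, described as CBL protein 4, had 0.16 and 0.22 FPKM in W, 1.21 and 0.94 FPKM in S1 and 2.81 and 2.64 FPKM in S3, a rise of 1.64 ± 0.17 in S3 against W (limma adjusted p = 0.000324). Outside S3 only S1 replicate 1 reached the minimum level of 1 FPKM, so the gene was tested only because it was high in S3. Its S3 call is therefore no independent evidence of a change. The steps of 0.80 (S1 against W) and 0.85 (S3 against S1) passed the p limit alone, and each passed the fold limit with a pseudocount of 0.1 (2.01 and 1.27). RefSeq lists this gene and GRMZM2G137751, at 0 in every library, as a single gene, so their separate levels are uncertain.

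GRMZM2G125838, described as calcineurin subunit B after the regulatory subunit of the animal phosphatase calcineurin, changed more sharply than the CBL genes. It had 11.2 and 8.57 FPKM in W, 7.59 and 9.70 FPKM in S1 and 57.3 and 61.9 FPKM in S3. W and S1 overlapped, and both S3 libraries exceeded every other library by over 5 times. The log2 change was -0.18 ± 0.19 in S1 against W, 2.66 ± 0.19 in S3 against S1 (limma adjusted p = 0.000143) and 2.48 ± 0.19 in S3 against W (limma adjusted p = 8.96e-05). The other gene of this description, GRMZM2G146948, did not exceed 0.15 FPKM.

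All 11 CIPK were tested. In S1 against W 3 rose and 1 fell (27.3% and 9.09%), beside 7.51% and 1.54% of all genes tested. In S3 against S1 4 rose and none fell (36.4% and 0%), beside 9.17% and 9.22%. In S3 against W 5 rose and none fell (45.5% and 0%), beside 13.3% and 8.7%. The medians were 0.28, 0.50 and 0.75, where those of all genes tested were -0.01, 0.11 and 0.16. The summed level of the 11 CIPK was 307 and 284 FPKM in W, 505 and 600 FPKM in S1 and 478 and 702 FPKM in S3.

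Most of the higher sum came from GRMZM2G174896, described as CIPK-like protein 1. It had 22.6 and 26.6 FPKM in W, 237 and 276 FPKM in S1 and 129 and 311 FPKM in S3. No stressed library came near those of W, while the S3 libraries lay apart from each other and on both sides of S1. The fitted log2 change was 3.33 ± 0.37 in S1 against W (limma adjusted p = 0.00114) and 2.98 ± 0.37 in S3 against W (limma adjusted p = 0.000697); in S3 against S1 the interval, between -1.21 and 0.51, left a fall of more than 2-fold possible. Of the summed CIPK level it made up 7.37% and 9.35% in the W libraries, 47.0% and 46.1% in those of S1 and 27.0% and 44.3% in those of S3. The highest CIPK of W leaves, GRMZM2G472643 (described as CIPK 15), made up 51.0% and 51.3% in the W libraries, 22.4% and 25.7% in those of S1 and 22.6% and 13.8% in those of S3, with levels of 157 and 146 FPKM in W, 113 and 154 FPKM in S1 and 108 and 96.6 FPKM in S3.

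**Figure D3:**
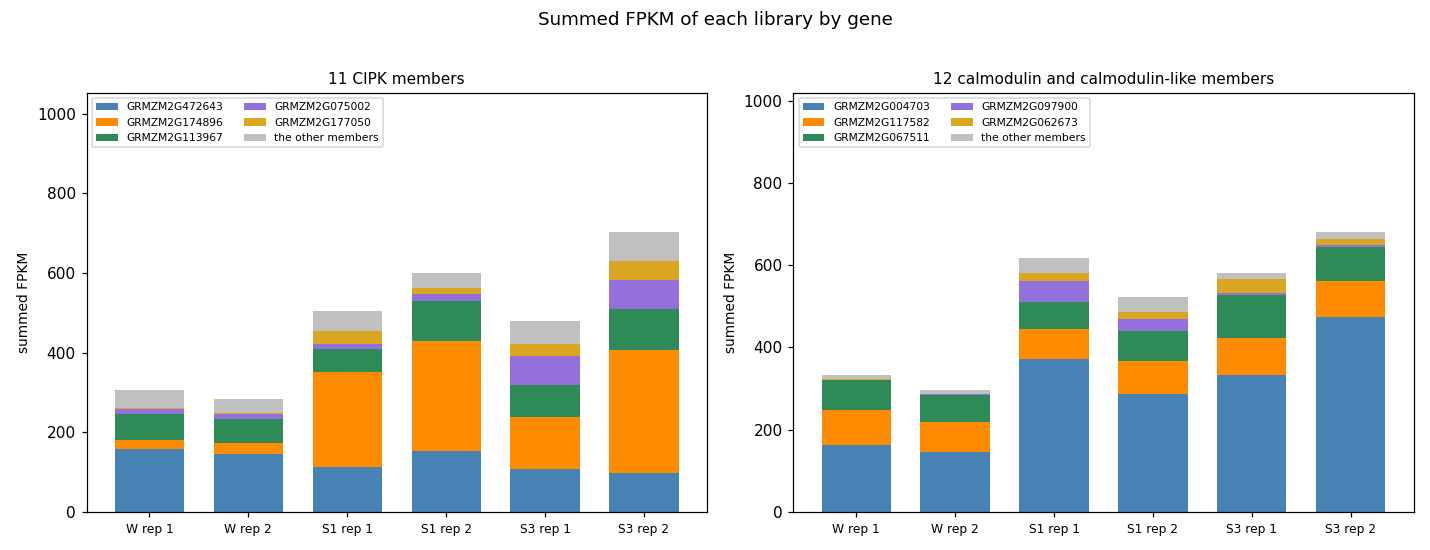
Summed FPKM (y axis, from 0) of the 11 CIPK and of the 12 calmodulins and calmodulin-like genes in each of the 6 libraries (x axis), stacked by gene, with the 5 genes of highest mean share named and the rest added up. In the CIPK, GRMZM2G174896 makes up 47.0% and 46.1% of the S1 stacks, against 7.37% and 9.35% in W.

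Both genes described as CIPK 11 rose at the first drying. GRMZM2G177050 had 1.83 and 2.63 FPKM in W, 33.3 and 16.1 FPKM in S1 and 30.5 and 48.4 FPKM in S3. GRMZM2G176519 had 4.73 and 4.63 FPKM in W, 21.6 and 18.8 FPKM in S1 and 14.5 and 20.4 FPKM in S3. In each, both stressed conditions stood clear of W and overlapped with each other. GRMZM2G177050 had 2.92 ± 0.35 in S1 against W (limma adjusted p = 0.00164) and 3.62 ± 0.35 in S3 against W (limma adjusted p = 0.00024), and its 0.70 in S3 against S1 was a call without S1 replicate 1 alone (1.20). GRMZM2G176519 had 1.90 ± 0.19 in S1 against W (limma adjusted p = 0.000724) and 1.68 ± 0.19 in S3 against W (limma adjusted p = 0.000468).

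GRMZM2G075002, described as CIPK 1, was called in both comparisons with S3 and not in S1 against W. It had 13.1 and 11.3 FPKM in W, 12.8 and 17.6 FPKM in S1 and 73.2 and 72.0 FPKM in S3, so that W and S1 overlapped and the S3 libraries were nearly equal. It had a log2 change of 0.28 ± 0.18 in S1 against W, 2.20 ± 0.18 in S3 against S1 (limma adjusted p = 0.000236) and 2.48 ± 0.18 in S3 against W (limma adjusted p = 8.29e-05). Among others, GRMZM2G125838, GRMZM2G061950 and GRMZM2G178074 also had a level in S3 several times that of both other conditions.

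GRMZM2G316136 was the 1 gene of the 62 that fell at the first drying. Described as CIPK 15, it had 23.0 and 16.8 FPKM in W, 4.78 and 4.48 FPKM in S1 and 15.6 and 17.1 FPKM in S3. The S1 libraries lay below all others, and those of S3 overlapped with W. The log2 change was -1.88 ± 0.18 in S1 against W (limma adjusted p = 0.000643), 1.62 ± 0.18 in S3 against S1 (limma adjusted p = 0.000704) and -0.25 ± 0.18 in S3 against W, with an interval between -0.68 and 0.17. The other 3 genes with this description, GRMZM2G472643, GRMZM2G041463 and GRMZM2G429940, had -0.19, 0.09 and 0.45 in S1 against W with no call, and GRMZM2G429940 had an interval as wide as -0.83 to 1.72.

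The other 2 genes described as CIPK-like protein 1 rose in S3 against S1 from lower levels. GRMZM2G129018 had 9.10 and 7.33 FPKM in W, 7.77 and 5.11 FPKM in S1 and 15.1 and 13.7 FPKM in S3, a rise of 1.07 ± 0.21 in S3 against S1 (limma adjusted p = 0.0069), the rise closest to the fold limit in that comparison. It was lost without S1 replicate 2 (0.81), with either other scaling (0.97 and 0.94) and with a pseudocount of 2 (0.97). GRMZM2G330049 had 1.11 and 0.66 FPKM in W, 2.16 and 0.74 FPKM in S1 and 3.23 and 6.65 FPKM in S3, a rise of 1.28 ± 0.36 in S3 against S1 (limma adjusted p = 0.0272) and of 1.61 ± 0.36 in S3 against W (limma adjusted p = 0.00985). The S3 against S1 call was lost without S1 replicate 2 (0.85) or S3 replicate 2 (0.85), with a pseudocount of 2 (0.996) and when all genes above 0 were tested (limma adjusted p = 0.0808), and the S3 against W call without W replicate 2 (1.43).

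**Figure D4:**
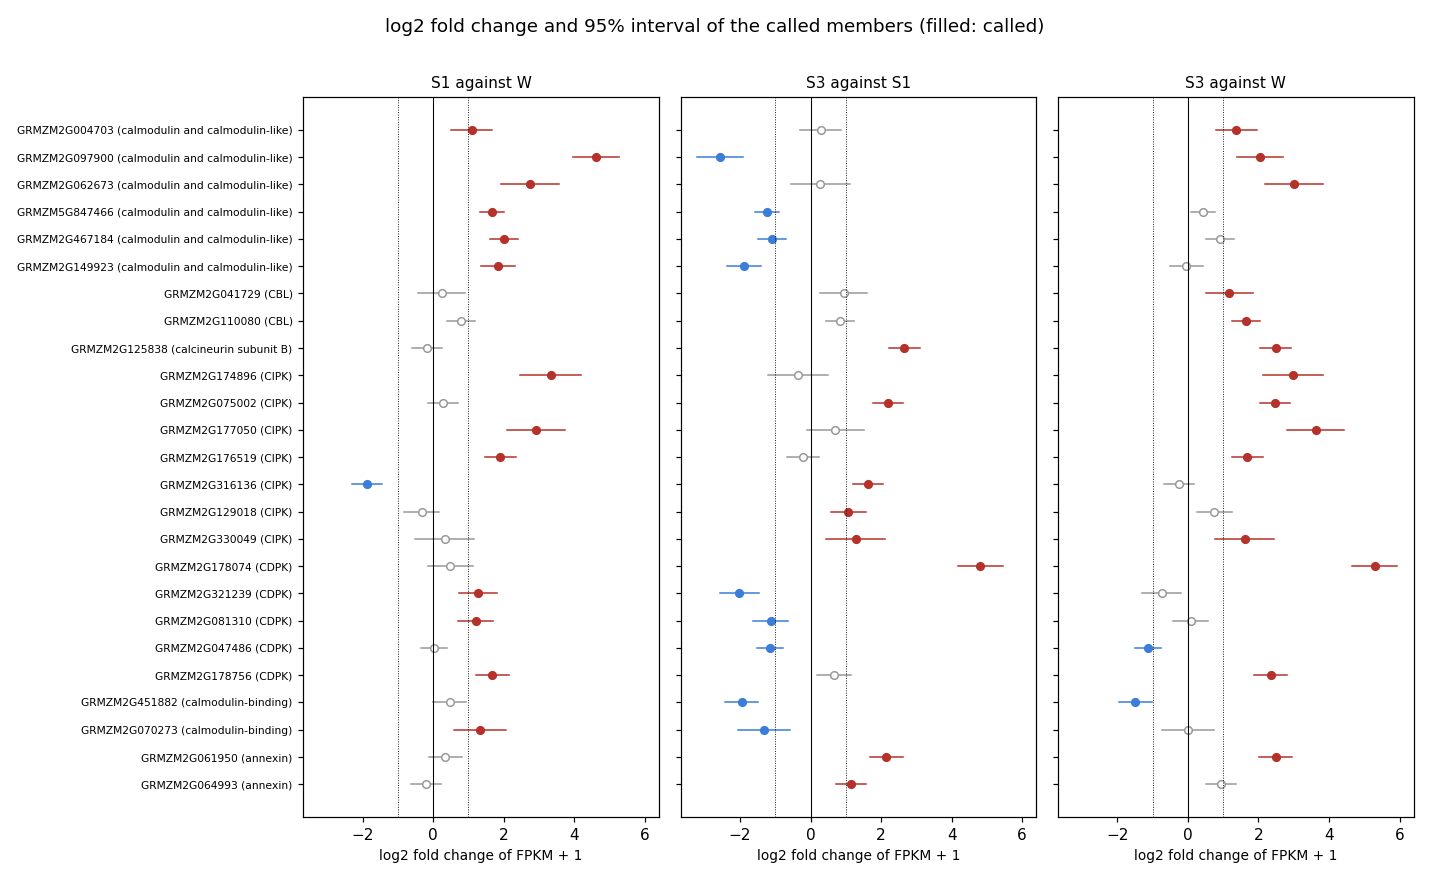
The log2 fold change of FPKM + 1 (x axis) of the 25 genes that changed in at least 1 comparison (y axis, by group), with the 95% interval from limma; filled points were called, red for higher and blue for lower, and dotted lines mark the fold limit. In S3 against S1 the calls of the calmodulin group lie to the left of 0 and those of the CIPK to the right.

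Of the 15 CDPK, 12 were tested. In S1 against W 3 rose and none fell, in S3 against S1 1 rose and 3 fell, and in S3 against W 2 rose and 1 fell. The calls made up 25% and 0% of those tested in S1 against W, beside 7.51% and 1.54% of all genes. In S3 against W these were 16.7% and 8.33%, close to the 13.3% and 8.7% of all genes, and in S3 against S1 they were 8.33% and 25%, beside 9.17% and 9.22%. GRMZM2G178074, treated next, was the only riser in S3 against S1 and 1 of the 2 in S3 against W. As it was tested only through its S3 level, these rising shares are not independent of that choice. The largest fitted difference of the 62 genes in both comparisons with S3 was in GRMZM2G178074. The deposited description calls it a calcium-dependent protein kinase, isoform AK1, but RefSeq lists the same gene model as PPCK1, phosphoenolpyruvate carboxylase kinase, which phosphorylates the carbon-fixing enzyme of C4 leaves and lacks the calcium-binding domain of its CDPK relatives. It had 0.37 and 0.19 FPKM in W, 0.98 and 0.62 FPKM in S1 and 37.0 and 65.8 FPKM in S3. It reached the minimum level of 1 FPKM only in S3, so it was tested only because it was high there and had to differ. The log2 change was 0.49 ± 0.27 in S1 against W, 4.81 ± 0.27 in S3 against S1 (limma adjusted p = 7.72e-05) and 5.30 ± 0.27 in S3 against W (limma adjusted p = 2.3e-05).

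GRMZM2G178756, also described as isoform AK1 and listed by RefSeq as cdpk14, had 2.40 and 2.09 FPKM in W, 10.1 and 8.62 FPKM in S1 and 12.8 and 18.5 FPKM in S3, without overlap between conditions. It rose by 1.68 ± 0.20 in S1 against W (limma adjusted p = 0.00178) and by 2.34 ± 0.20 in S3 against W (limma adjusted p = 0.000153), and its 0.67 in S3 against S1 passed the p limit alone (limma adjusted p = 0.0371). The other tested isoform AK1 genes, GRMZM2G311220 and GRMZM2G028086, had no call in any comparison.

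GRMZM2G321239 and GRMZM2G081310 were CDPK with their highest level in S1. GRMZM2G321239 had 13.1 and 21.7 FPKM in W, 38.4 and 46.3 FPKM in S1 and 9.82 and 9.51 FPKM in S3, with S3 below W. On the log2 scale the difference was 1.27 ± 0.23 in S1 against W (limma adjusted p = 0.0107) and -2.02 ± 0.23 in S3 against S1 (limma adjusted p = 0.000776). The S1 rise was lost without W replicate 1 (0.93) or S1 replicate 2 (1.14), and the S3 difference from W (-0.75) became a call without W replicate 1 (-1.09). GRMZM2G081310 had 7.88 and 10.6 FPKM in W, 19.5 and 25.5 FPKM in S1 and 8.53 and 10.98 FPKM in S3, where S3 and W overlapped. It rose by 1.20 ± 0.21 in S1 against W and had -1.13 ± 0.21 in S3 against S1. The rise was lost without W replicate 1 (1.01) or S1 replicate 2 (1.02), and the fall without S1 replicate 2 (-0.94) or S3 replicate 1 (-0.96).

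GRMZM2G047486, known as ZmCPK11, was lower in S3 than in W and S1. It had 19.1 and 20.1 FPKM in W, 18.1 and 21.8 FPKM in S1 and 8.42 and 8.34 FPKM in S3. W and S1 overlapped and both S3 libraries lay below them, with a log2 change of -1.15 ± 0.16 in S3 against S1 (limma adjusted p = 0.00144) and of -1.14 ± 0.16 in S3 against W (limma adjusted p = 0.00108). The CDPK of highest mean level, GRMZM2G154489 (CDPK 2), had between 33.3 and 41.2 FPKM in all 6 libraries, with an interval between -0.29 and 0.43 in S1 against W and between -0.43 and 0.29 in S3 against W. GRMZM2G162409, the more abundant CDPK substrate, had between 18.3 and 25.8 FPKM and no call.

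Of the 22 calmodulin-binding proteins, the targets of calmodulin, 9 were below the minimum level. Among the 13 tested, 1 rose in S1 against W, 2 fell in S3 against S1 and 1 fell in S3 against W. These were 7.69%, 15.4% and 7.69%, beside 7.51%, 9.22% and 8.7% of all genes tested, so the first and last were close to those. GRMZM2G070273, tested only through its S1 level, was the riser and 1 of the 2 that fell in S3 against S1. GRMZM2G451882, the most abundant of the 83 genes in W leaves, had 282 and 292 FPKM in W, 374 and 420 FPKM in S1 and 91.9 and 112 FPKM in S3. The 3 conditions did not overlap, with S3 lowest. The fitted log2 change was 0.47 ± 0.20 in S1 against W with no call, -1.95 ± 0.20 in S3 against S1 (limma adjusted p = 0.000489) and -1.49 ± 0.20 in S3 against W (limma adjusted p = 0.000991). The summed level of the group was 467 and 476 FPKM in W, 566 and 602 FPKM in S1 and 231 and 265 FPKM in S3.

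GRMZM2G018837, next in level in this group, had 138 and 137 FPKM in W, 139 and 136 FPKM in S1 and 91.3 and 106 FPKM in S3, with -0.48 ± 0.17 in S3 against W and no call. GRMZM2G070273, a kinesin-like calmodulin-binding protein of the family of microtubule motors, had 0.37 and 0.92 FPKM in W, 4.64 and 1.93 FPKM in S1 and 0.55 and 0.70 FPKM in S3. It passed the minimum level only in S1, so it was tested only because it was high there. Its calls are therefore no independent evidence of a change. It had a log2 change of 1.33 ± 0.32 in S1 against W (limma adjusted p = 0.0295) and -1.32 ± 0.32 in S3 against S1 (limma adjusted p = 0.0153). The S1 against W call was lost without W replicate 1 (1.08), W replicate 2 (1.57) or S1 replicate 1 (0.85), and the S3 against S1 call without S1 replicate 1 (-0.85) or S3 replicate 1 (-1.26). A pseudocount of 2 ended both calls (0.96 and -0.96), and that of S1 against W was also lost when all genes above 0 were tested (limma adjusted p = 0.0861) and with the replicate block (limma adjusted p = 0.0541).

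Close to the fold limit on its outer side were 2 genes of this group. GRMZM2G121851, a calmodulin-binding protein, had 8.24 and 8.29 FPKM in W, 14.7 and 16.0 FPKM in S1 and 9.71 and 11.7 FPKM in S3, a log2 change of 0.82 ± 0.16 in S1 against W (limma adjusted p = 0.0127). GRMZM2G057768, described as a phosphatase of calcium/calmodulin-dependent kinase, had 5.51 and 6.02 FPKM in W, 5.77 and 3.85 FPKM in S1 and 2.85 and 2.17 FPKM in S3, a log2 change of -0.95 ± 0.21 in S3 against W (limma adjusted p = 0.00927). It became a call without W replicate 1 (-1.01), without S3 replicate 1 (-1.09) and under both other scalings (-1.14 and -1.08).

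Of the 6 annexins 4 were tested, and none was called in S1 against W, where 7.51% of all genes tested rose and 1.54% fell. In S3 against S1 2 of the 4 (50%) rose, beside 9.17% of all genes tested, and in S3 against W 1 (25%), beside 13.3%. GRMZM2G061950, annexin2, had 5.53 and 5.40 FPKM in W, 7.05 and 7.32 FPKM in S1 and 28.9 and 42.9 FPKM in S3. The log2 change was 0.34 ± 0.20 in S1 against W, 2.15 ± 0.20 in S3 against S1 (limma adjusted p = 0.000369) and 2.49 ± 0.20 in S3 against W (limma adjusted p = 0.000118). GRMZM2G064993, annexin p33, had 1.83 and 1.45 FPKM in W, 1.17 and 1.40 FPKM in S1 and 4.50 and 3.64 FPKM in S3. It rose by 1.15 ± 0.18 in S3 against S1 (limma adjusted p = 0.00279), a call lost with a pseudocount of 2 (0.88), and its 0.94 in S3 against W was a call without W replicate 1 (1.05) or S3 replicate 2 (1.06). In both genes the S3 libraries stood above all others. The most abundant annexin, GRMZM2G009136 (annexin A4), had between 44.1 and 73.7 FPKM and no call, S1 overlapping with both other conditions, and the other annexin A4, GRMZM2G172834, spread so widely in S3 (33.5 and 12.7 FPKM) that its interval against W ran between -1.20 and 0.75.

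Calreticulin, GRMZM2G358059, had 31.7 and 42.9 FPKM in W, 58.5 and 60.4 FPKM in S1 and 52.5 and 47.8 FPKM in S3. All stressed libraries stood above W, and its 0.67 ± 0.18 in S1 against W passed the p limit (limma adjusted p = 0.0456) without reaching the fold limit. Of the 7 other calcium-binding proteins 4 were tested with no call. The highest of them, GRMZM2G180622, had 18.3 and 18.6 FPKM in W, 29.9 and 27.0 FPKM in S1 and 36.2 and 36.5 FPKM in S3 without overlap between conditions, and its 0.94 ± 0.14 in S3 against W (limma adjusted p = 0.00179) stayed just under the limit. A p without a call does not show that a level was unchanged. Of the 62 genes, the 95% interval of the log2 change lay within the fold limit on both sides for 35 in S1 against W. It did so for 28 in S3 against S1 and for 30 in S3 against W. As this is the scale of FPKM + 1, the levels of weakly expressed genes among them can still differ by more than 2-fold.

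Beyond the 83 genes, 39 others of calcium signalling were listed by description, of which 29 were tested: 7 rose and none fell in S1 against W, 1 rose and 4 fell in S3 against S1, and 4 rose and 2 fell in S3 against W. These were 24.1% and 0% of the 29 in S1 against W (7.51% and 1.54% of all genes), 3.45% and 13.8% in S3 against S1 (9.17% and 9.22%) and 13.8% and 6.90% in S3 against W, close to the 13.3% and 8.7% of all genes. The sensors among them, 15 tested genes of the EF-hand type, had 5 that rose (33.3%) and none that fell in S1 against W. In S3 against S1 1 rose and 2 fell (6.67% and 13.3%), and in S3 against W 4 rose and 1 fell (26.7% and 6.67%). GRMZM2G340807, described as polcalcin, a small EF-hand protein known as a pollen allergen, had 1.32 and 0.86 FPKM in W, 10.3 and 10.1 FPKM in S1 and 6.46 and 8.24 FPKM in S3, and rose in both comparisons with W (2.43 and 2.00). Among 12 tested targets and partners 2 (16.7%) rose and none fell in S1 against W. In S3 against S1 2 (16.7%) fell and none rose, and in S3 against W 1 (8.33%) fell and none rose. GRMZM2G056732, described as SnRK2.2 and so a relative of the CIPK in the SNF1-related kinases, which act in abscisic acid signalling in Arabidopsis, had 20.3 and 24.1 FPKM in W, 97.6 and 86.7 FPKM in S1 and 22.1 and 20.6 FPKM in S3. On the log2 scale the difference was 2.01 in S1 against W (limma adjusted p = 0.000286) and -2.06 in S3 against S1 (limma adjusted p = 0.000191), and S3 and W overlapped. The calcium exchanger, the tested channel (TPC1), calnexin and the respiratory burst oxidases, which make reactive oxygen and are phosphorylated by CDPK, had no call in any comparison. Some passed the p limit alone. In S1 against W these were calnexin (0.80, limma adjusted p = 0.0403) and the oxidase GRMZM2G043435 (0.76, limma adjusted p = 0.0326). In S3 against S1 they were TPC1 (0.70, limma adjusted p = 0.0118) and the oxidase GRMZM2G138152 (-0.65, limma adjusted p = 0.0457). In S3 against W they were calnexin (0.64, limma adjusted p = 0.0439) and TPC1 (0.54, limma adjusted p = 0.0279).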

How the data were processed

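Leaf RNA of 6 libraries (W, S1 and S3, 2 each) was analysed from deposited files. The authors used bowtie and tophat for mapping to the RefGen_v2 assembly of B73 (the submitters' processing notes name CASAVA 1.8.2, TopHat 0.12.8 and Cuffdiff) and deposited an FPKM value per gene and library from cuffdiff; their fold change and q-value columns were not used. The authors' S3 values came from another cuffdiff run than those of W and S1. S3 was therefore multiplied by 0.993, the median ratio of S1 between both runs (97.5% of genes within 0.5%).

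The 20130 genes that reached 1 FPKM in 2 or more libraries were fitted together as log2(FPKM + 1) in limma 3.58.1 (R 4.3.3; trended empirical Bayes, Benjamini-Hochberg over all genes tested), which was tested on simulated data. A call needed an adjusted p no greater than 0.05, a 2-fold difference on this scale and a condition above the 25th percentile of FPKM; the last removed 0 calls. Tables were handled with pandas 2.3.3 and plots drawn with matplotlib 3.10.9 in Python 3.11.15. Named genes were all members called in any comparison, the highest of each group and those next to the fold limit; others serve as examples. Of the 83 descriptions 4 were assigned to their group by hand. RefSeq (Zm-B73-REFERENCE-NAM-5.0) named 76 of them; its coordinates were not used, since the build differs, and sequences were not analysed here. Alternatives changed the scaling, filter, pseudocount, thresholds, bridge, libraries and a replicate block. The members and lists were chosen with earlier results of these data known. Depth is not given by FPKM.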

Additional observations from a re-analysis of the deposited data

How the results depend on the processing

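Of 47 calls on named genes, 35 held under each of the 11 alternatives and without each library in turn, 12 were lost at least once, and 0 changed sign. The p limit of 0.01 ended 6 calls, a pseudocount of 2 ended 6, testing all genes above 0 ended 4, upper-quartile scaling ended 3, median-of-ratios scaling 1 and the replicate block 2. Leaving out a library ended between 1 and 6, and the lone library of its condition was then assumed to vary like the others. Without the fold limit, 20 genes rose in S1 against W, 14 rose and 14 fell in S3 against S1, and 24 rose and 4 fell in S3 against W. With a pseudocount of 2 the risers of S3 against S1 numbered 5. Leaving out libraries gave 2 to 4 falls in S3 against W, the 4 without W replicate 1. The bridge factor changed 0 calls. Why these counts moved was not tested. Dropping the fold limit could only add calls, so holding under that alternative was fixed in advance. The filter was not applied again when a library was left out. With either S3 library left out GRMZM2G178074 would not have passed it, yet its calls count among those that held.

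Replicate numbers marked a small difference in read length. Whether same-numbered libraries also shared a sowing, experiment or sequencing run is not given in the sources used here. Deviations of same-numbered libraries correlated at 0.14 (W and S1), -0.087 (W and S3) and 0.062 (S1 and S3). With the replicate number as a block, risers in S1 against W numbered 11 in place of 13, GRMZM2G004703 (1.09, limma adjusted p = 0.0558) and GRMZM2G070273 (1.33, limma adjusted p = 0.0541) being the 2 lost, while S3 against S1 kept counts of 8 and 9 and S3 against W of 14 and 2.

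Signs turned only in differences that were no calls. Ranges over left-out libraries crossed 0 for some. In S1 against W these were GRMZM2G009136 (-0.30 to 0.16), GRMZM2G041729 (-0.020 to 0.49), GRMZM2G047486 (-0.11 to 0.15), GRMZM2G057768 (-0.48 to 0.0033), GRMZM2G112672 (-0.042 to 0.29), GRMZM2G125838 (-0.35 to 0.0026), GRMZM2G162409 (-0.15 to 0.12) and GRMZM2G330049 (-0.11 to 0.76). In S3 against S1 these were GRMZM2G062673 (-0.23 to 0.79), GRMZM2G112672 (-0.12 to 0.22), GRMZM2G174896 (-0.98 to 0.28) and GRMZM2G176519 (-0.45 to 0.016). In S3 against W these were GRMZM2G070273 (-0.24 to 0.25), GRMZM2G081310 (-0.12 to 0.27), GRMZM2G149923 (-0.19 to 0.10) and GRMZM2G154489 (-0.18 to 0.034). With upper-quartile scaling the sign turned for GRMZM2G047486 in S1 against W (-0.10), GRMZM2G070273 in S3 against W (-0.089), GRMZM2G081310 in S3 against W (-0.14), GRMZM2G112672 in S3 against S1 (-0.058), GRMZM2G112672 in S3 against W (-0.053) and GRMZM2G154489 in S1 against W (-0.049). With median-of-ratios scaling the sign turned for GRMZM2G047486 in S1 against W (-0.0091), GRMZM2G070273 in S3 against W (-0.061), GRMZM2G081310 in S3 against W (-0.076) and GRMZM2G112672 in S3 against S1 (-0.085). With a pseudocount of 2 the sign turned for GRMZM2G070273 in S3 against W (-0.0022).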
